A study of Mus musculus with 6 samples.

Results

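Ifi27l2a, Bst2, Lgals3bp, Xaf1, Rtp4, Ifi35, Ifi44, Samd9l, Trim30a and Phf11d are 10 interferon-induced effector genes, taken by name from the 24972 gene rows of a table of normalized read counts. All 10 had a mean of at least 10 normalized counts over the libraries and entered the test with 12467 other genes, 12477 in all. RNA came from heart cells prepared as cardiomyocytes from mice that all had the MX1gfp genotype, 3 given vehicle (phosphate buffered saline) and 3 given doxorubicin, an anthracycline that poisons topoisomerase II. Both were given once by intraperitoneal injection, doxorubicin at 25 mg/kg, and cells were taken at 48 h. The labels give no age, sex or library batch, so the groups differ by treatment as far as the labels say. Ventricular cells were digested with collagenase and the myocytes settled by gravity, without sorting, and the design text counts 3 mice per group.

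Type I interferons bind the receptor Ifnar1 and Ifnar2, and the kinases Jak1 and Tyk2 then activate a transcription factor complex that contains Irf9 and binds the interferon-stimulated response element in the promoters of target genes. Interferon gamma has a receptor of its own and acts at a different element. The effectors studied here lie at the end of that chain: some hold or bind viral particles or RNA, some act on cell survival, and some tune the signal itself. Heart cells of every type can respond, and so can the leukocytes that enter an injured heart.

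The response element is seen most directly in the promoters, so these are shown before the values. RefSeq promoter windows (GRCm38.p6, the assembly behind mm10, 250 bases before a start to 50 after it) were matched for 8 of the 10 genes. Both strands were searched for the strict tandem form of the element (GAAA, any 2 bases, then GAAA) and for AANNGAAAC, a looser form that was chosen after the sequences had been read. The 2 forms can overlap. The strict form was found in Bst2 and Trim30a, 2 of the 8 genes, against 3.99% of all 27025 genes with a window. The looser form was found in 7 of the 8, all but Ifi35, and in 6.61% of all genes. As it was chosen with these sequences in view, setting those shares side by side is no test of enrichment. TTCNNNGAA, the form of the interferon gamma element, was found in Bst2 and Ifi35, against 9.55% of all genes. A match describes the letters only and does not show that a factor binds.

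The stretches below carry the matches, 5′ to 3′ on the strand of the gene. Capitals mark the bases that belong to a match of the strict or the looser form, or to its reverse complement.
Bst2, chr8:71537563-71537642, minus strand: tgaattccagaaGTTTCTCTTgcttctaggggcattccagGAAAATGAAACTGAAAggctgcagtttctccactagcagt
Trim30a, chr7:104465194-104465273, minus strand: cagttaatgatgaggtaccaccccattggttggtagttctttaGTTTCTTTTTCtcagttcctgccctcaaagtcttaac
Ifi44, chr3:151749911-151749990, minus strand: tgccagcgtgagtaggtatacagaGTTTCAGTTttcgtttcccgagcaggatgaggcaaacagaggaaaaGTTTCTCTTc
Lgals3bp, chr11:118401960-118402039, minus strand: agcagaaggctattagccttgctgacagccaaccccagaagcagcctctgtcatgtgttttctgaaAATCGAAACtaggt
Phf11d, chr14:59365477-59365501, minus strand: atttcgggAAACGAAACtaggagct
Xaf1, chr11:72301632-72301656, plus strand: gtgcaaagAAACGAAACtccacaga
Samd9l, chr6:3399528-3399552, minus strand: tgtatcagAATCGAAACtggaaact

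In Bst2 the strict form occurs as 2 overlapping matches that begin 130 and 124 bases before the start, so GAAA occurs 3 times in the run GAAAATGAAACTGAAA. In Trim30a it begins 36 bases before the start of the window shown. Trim30a has another RefSeq window with a different start, where a match of the same letters begins at base 3 after that start. The matches of Ifi44 begin 56 and 10 bases before the start, and that of Lgals3bp begins 14 bases before it. The match of Phf11d spans the start, and that of Samd9l begins at base 28 after it. The match of Xaf1 begins at base 12 after the start of its window. That start lies inside the RefSeq gene, which begins further upstream, at 72301461. Phf11d and Xaf1 share the same match, AAACGAAAC, and Lgals3bp and Samd9l share another, AATCGAAAC. Among 43 of the other interferon-stimulated genes described later that have a window, 25 held the strict form and 26 the looser one.

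Every one of the 10 genes had a higher mean in doxorubicin than in vehicle libraries, by 0.68 to 2.10 on the log2(value + 1) scale, with a median of 1.02. Over all 12477 genes tested the median was -0.0046 and 49.6% had a positive difference. No gene passed the test: limma with Benjamini-Hochberg adjustment over all genes called 0 genes higher (0%) at an adjusted p under 0.05, and 0 lower. At an unadjusted p under 0.05, 9 of the 10 genes were higher, all but Ifi44, against 16.7% of all genes (2081), while 2404 genes were lower. The 10 genes had adjusted p from 0.0859 to 0.184, and the smallest of any gene was 0.0859. That smallest value is a tie left by the adjustment and does not order the genes that share it. By unadjusted p, the members that share it ranked 60 (Ifi27l2a), 446 (Xaf1), 488 (Rtp4), 1074 (Lgals3bp) and 1343 (Ifi35) of 12477 genes. The other members ranked from 2059 (Trim30a) to 5461 (Ifi44). In these bulk samples fewer cells of a type and less RNA per cell cannot be told apart. Because no gene was called, the difference is given as a size with its spread and not as a call. In 8 of the 10 the lowest doxorubicin library lay above the highest vehicle library, which was so for 19.2% of all genes tested. With 3 libraries against 3 the exact two-sided permutation test of 1 gene cannot give a p below 0.1. Any gene without overlap reaches that limit, so for those 8 genes the test adds nothing to the count.

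**Figure D1:**
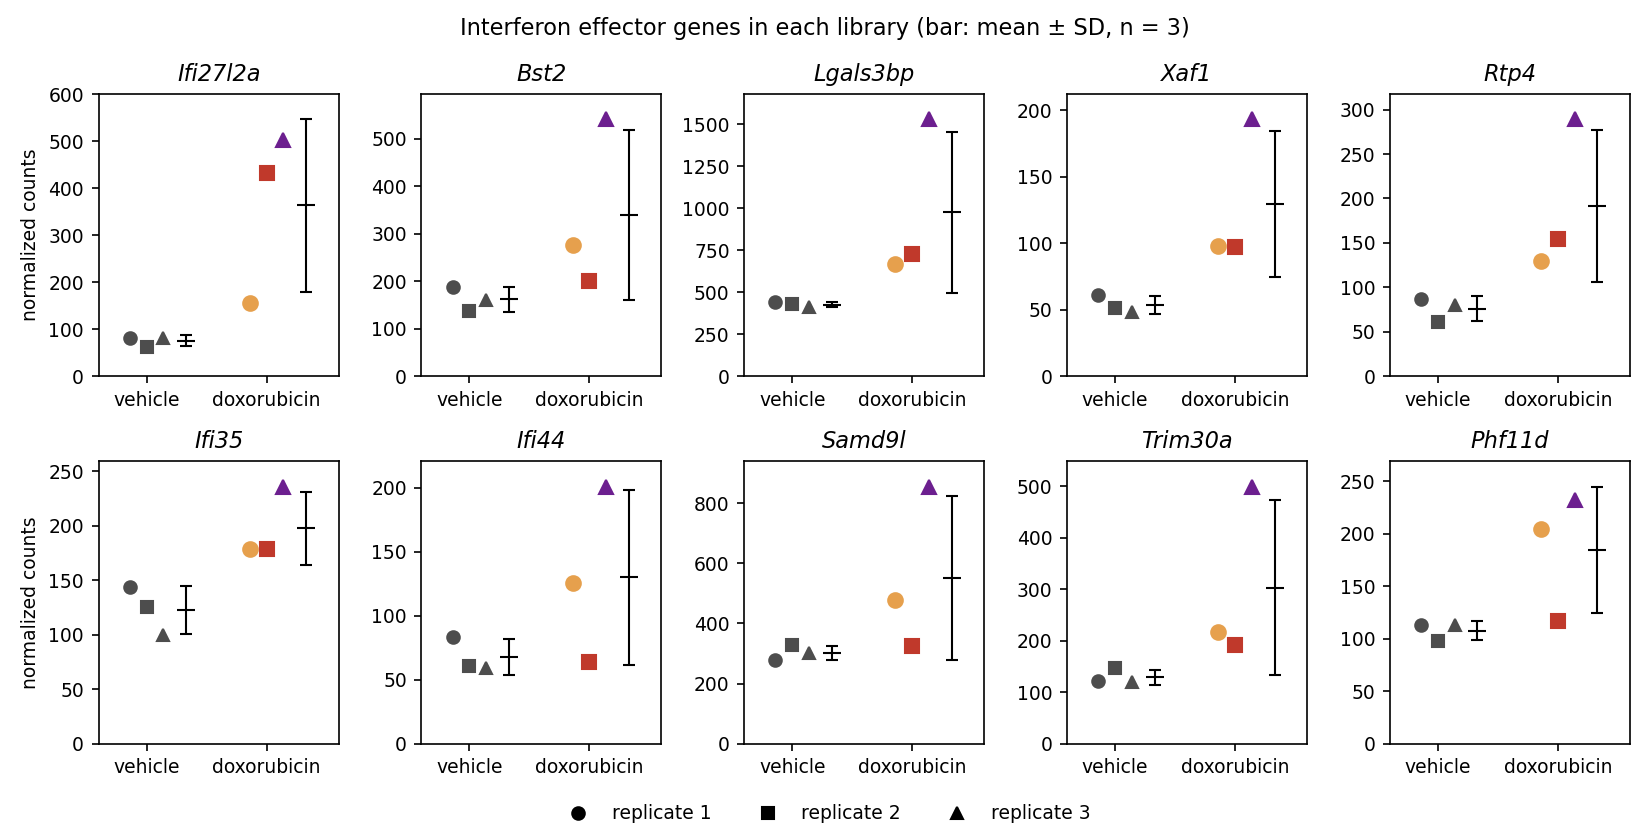
Normalized counts (vertical axes, from 0) of the 10 genes in the 3 vehicle and 3 doxorubicin libraries, with symbols for replicates and bars for mean ± SD, n = 3. Doxorubicin replicate 3 is the highest library for all 10 genes, and only in Ifi44 and Samd9l does replicate 2 fall within the vehicle range.

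Ifi27l2a (chromosome 12, 103433873 to 103443680) encodes a small hydrophobic membrane protein of the ISG12 family and is among the genes most readily induced by interferon. It had 81.6, 62.5 and 82.0 normalized counts with vehicle, against 156, 431 and 503 for doxorubicin replicates 1, 2 and 3. The groups did not overlap, and even the lowest doxorubicin library was nearly double the highest vehicle library. The means were 75.4 ± 11.1 and 363 ± 183 (SD, n = 3), a log2 fold change of 2.10 (SE 0.42, 95% interval 1.13 to 3.07, limma adjusted p 0.0859). It had the largest difference of the 10 genes and ranked 151 of 12477 genes by size. It also behaved unlike the others in doxorubicin replicate 2. Relative to the mean of the other 9 genes, its log2 level was -0.20 to 0.20 with vehicle and 0.28, 2.04 and 1.13 for doxorubicin replicates 1, 2 and 3.

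The surface and secreted proteins come next. Bst2 (chromosome 8, 71534255 to 71537472) encodes tetherin, which holds budding enveloped viruses at the cell surface. It had 189, 137 and 161 normalized counts with vehicle, against 277, 201 and 541 with doxorubicin. The groups did not overlap, but replicate 2 stood only just above the vehicle range. The log2 fold change was 0.95 (SE 0.34, 95% interval 0.14 to 1.75, limma adjusted p 0.103). Lgals3bp (chromosome 11, 118392747 to 118401959) encodes a secreted glycoprotein that binds galectins. Its vehicle libraries were the most alike of the 10 genes relative to their mean, at 441, 427 and 411, against 669.7, 726 and 1531 after doxorubicin. All doxorubicin libraries lay well clear of that range, and the log2 fold change was 1.09 (SE 0.30, 95% interval 0.38 to 1.79, adjusted p 0.0859).

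Xaf1 (chromosome 11, 72301461 to 72313733) encodes a partner of the caspase inhibitor XIAP that favours apoptosis. Its values were 61.3, 51.3 and 48.3 in vehicle and 98.3, 97.2 and 193 in doxorubicin libraries. Replicates 1 and 2 were nearly equal, replicate 3 was about double them, and no doxorubicin library overlapped vehicle. The log2 fold change was 1.19 (SE 0.29, 95% interval 0.51 to 1.87, limma adjusted p 0.0859). Xiap itself went from 617 ± 49.9 to 908 ± 144 (log2 fold change 0.55, adjusted p 0.0859), also without overlap.

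Rtp4 (chromosome 16, 23520219 to 23614222) encodes a chaperone of some G protein-coupled receptors that also binds viral RNA. It had 87.0, 60.4 and 80.2 normalized counts in vehicle libraries and 130.1, 155 and 289 in doxorubicin libraries. The groups did not overlap, and it was the only gene besides Ifi27l2a and Lgals3bp in which replicate 2 clearly exceeded replicate 1. Its log2 fold change of 1.25 (SE 0.31, 95% interval 0.53 to 1.98, limma adjusted p 0.0859) was the second largest of the 10.

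Ifi35 (chromosome 11, 101448412 to 101458701) encodes a leucine-zipper protein that pairs with Nmi. It had 143, 125 and 99.8 normalized counts in vehicle libraries and 178.2, 178.5 and 236 in doxorubicin libraries. It showed the most even difference over the 3 doxorubicin libraries, with no overlap, and the smallest log2 fold change of the 10 genes, 0.68 (SE 0.20, 95% interval 0.22 to 1.14, limma adjusted p 0.0859). Nmi differed by 0.40 (SE 0.16, adjusted p 0.125). Ifi44 (chromosome 3, 151730922 to 151749910), a cytoplasmic protein that restrains the replication of several viruses, had 83.7, 60.8 and 59.0 in vehicle and 125, 63.6 and 201 in doxorubicin libraries. Replicate 2 lay below the highest vehicle library, so the groups overlapped. The log2 fold change was 0.80 (SE 0.40, adjusted p 0.184) with a 95% interval from -0.12 to 1.72. Samd9l (chromosome 6, 3372257 to 3399571), which restrains cell growth and the translation of viral RNA, had 279.5, 327 and 300.2 in vehicle and 479, 324 and 855 in doxorubicin libraries. Replicate 2 again fell inside the vehicle range, and the log2 fold change was 0.76 (SE 0.32, 95% interval 0.0027 to 1.51, adjusted p 0.139).

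Trim30a (chromosome 7, 104409025 to 104465193) encodes a mouse TRIM protein that damps NF-kappaB signalling. It had 123, 146 and 119 normalized counts in vehicle libraries and 218, 192 and 499 in doxorubicin libraries. The groups did not overlap, replicate 3 held 54.9% of the sum of the doxorubicin libraries, and the log2 fold change was 1.09 (SE 0.34, 95% interval 0.29 to 1.89, limma adjusted p 0.0866). Phf11d (chromosome 14, 59347407 to 59365490), a PHD-finger protein, had 113, 97.4 and 113 in vehicle and 205, 117 and 232 in doxorubicin libraries. Replicate 2 was barely above vehicle, replicates 1 and 3 were close to each other, and the log2 fold change was 0.72 (SE 0.26, 95% interval 0.10 to 1.33, adjusted p 0.105).

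**Figure D2:**
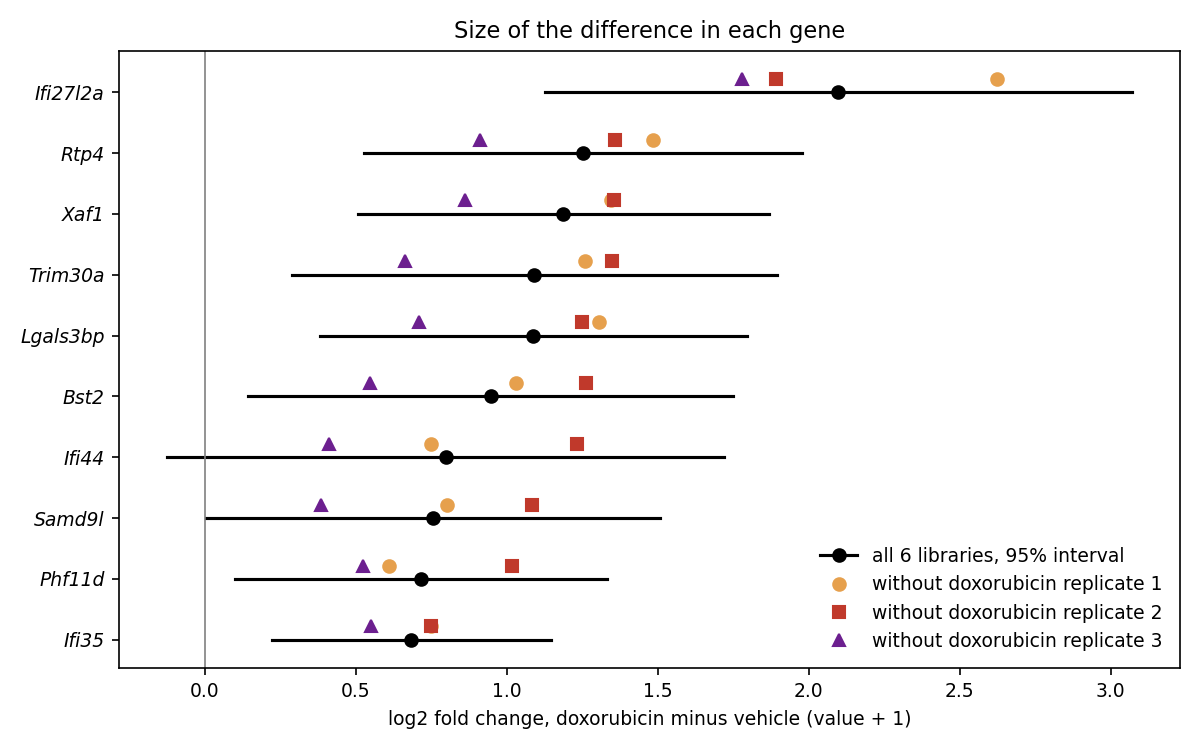
Log2 fold change of each gene (horizontal axis, doxorubicin minus vehicle) with all 6 libraries and its 95% interval from limma's standard error (black), and the value when 1 doxorubicin library is left out (coloured). Leaving out replicate 3 gives the smallest of the 3 coloured values for all 10 genes, and Ifi44 is the only gene whose interval reaches below 0.

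Per kilobase of the longest coding transcript in GENCODE M21, the vehicle levels were highest for Bst2 at 205 ± 32.8, Lgals3bp at 183 ± 6.45 and Ifi27l2a at 163 ± 24.1 normalized counts per kilobase (SD, n = 3). Each of these neighbours in the order overlapped the next. Ifi35 followed at 90.2 ± 16.1 and Samd9l at 56.7 ± 4.44, both without overlap with the gene above them. Rtp4 (40.8 ± 7.44), Phf11d (40.4 ± 3.32) and Trim30a (34.3 ± 3.87) overlapped one another, and Ifi44 (23.3 ± 4.74) overlapped Xaf1 (20.6 ± 2.62). After doxorubicin Ifi27l2a led, at 784 ± 396 per kilobase against 429 ± 226 for Bst2 and 419 ± 207 for Lgals3bp. It ranked above both in replicates 2 and 3 only: in replicate 1 Bst2 held 349 per kilobase and Ifi27l2a 336.

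The 3 doxorubicin libraries differed from vehicle to different degrees over all genes, and the 10 genes did not follow that order. The median absolute log2 change from the vehicle mean over the 12477 genes was 0.24, 0.46 and 0.62 in doxorubicin replicates 1 to 3. The 10 genes had a median change of 0.78 in replicate 1, 0.56 in replicate 2 and 1.79 in replicate 3. So the median of the 10 genes was higher in replicate 1, the library nearest to vehicle over all genes, than in replicate 2, although Ifi27l2a, Rtp4 and Lgals3bp were higher in replicate 2. All 10 genes lay above the upper quartile of all genes in replicates 1 (0.24) and 3 (0.62), and 6 did in replicate 2 (0.45). In replicate 1, 7 of the 10 lay above the 95th percentile of all genes (0.74). In replicate 2 only Ifi27l2a did (95th percentile 1.62), and in replicate 3 it was 5 (1.80). Replicate 3 was the highest of the 6 libraries for all 10 genes, as it was for 28.5% of all genes tested.

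**Figure D3:**
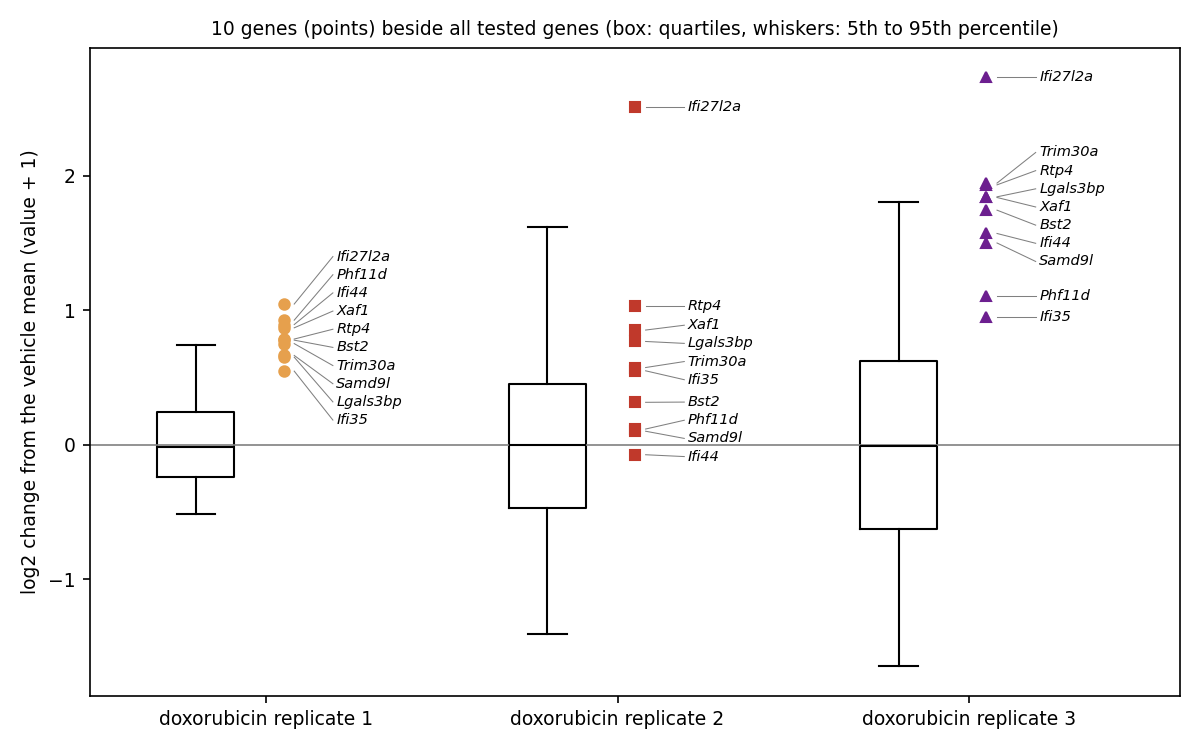
Log2 change from the vehicle mean (vertical axis) in each doxorubicin library, for the 10 genes (labelled points) and for all 12477 tested genes (box for quartiles, whiskers for the 5th and 95th percentiles). The 10 genes cluster between 0.55 and 1.05 in replicate 1, spread from -0.07 to 2.51 in replicate 2, and lie between 0.95 and 2.73 in replicate 3.

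Some of the 10 genes were called when doxorubicin replicate 1 was left out or when all libraries were weighted. Without it, limma called Ifi27l2a, Lgals3bp, Xaf1, Rtp4, Ifi35 and Trim30a higher, with adjusted p from 0.000146 for Ifi27l2a to 0.0231 for Ifi35. In that fit 19.4% of all genes were called higher. Weighting the libraries by their estimated variability gave the same 6 genes, against 15.7% of all genes. The weights were lowest for doxorubicin replicates 1 (0.277) and 3 (0.425) and highest for vehicle replicate 2 (3.24). Bst2, Ifi44, Samd9l and Phf11d were called in neither fit. Leaving out any 1 of the other 5 libraries gave no call. Without doxorubicin replicate 3 the median log2 fold change of the 10 genes was 0.61, from 0.38 for Samd9l to 1.78 for Ifi27l2a. Single values moved by more than 1.5 times there: Bst2 was at 0.55, Lgals3bp at 0.71, Trim30a at 0.66, Ifi44 at 0.41 and Samd9l at 0.38. Without replicate 2 all 10 genes were free of overlap, as were 23.8% of all genes tested in that setting. Their median was then 1.25, and Ifi44 stood at 1.23.

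The libraries also fell into classes by Xist and Y-linked transcripts, which the labels do not mention. Vehicle replicate 3 and doxorubicin replicates 1 and 3 held 1558 to 2093 normalized counts of Xist, and the other 3 libraries held 0 to 1.92. Within the Xist class all 10 genes were higher after doxorubicin, with a median log2 difference of 1.28. Within the Y-linked class, which has doxorubicin replicate 2 as its only treated library, 9 of 10 were higher with a median of 0.47, Ifi44 being at -0.16. Each class has a group with 1 library, so no test was made within classes.

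Over the 6 libraries the log2 values of the genes correlated to different degrees, which is given as a description without a test. Lgals3bp and Xaf1 were the most alike pair (Pearson r 0.987), followed by Lgals3bp and Trim30a (0.982). Ifi27l2a was most like Rtp4 (0.940) and least like Ifi44 (0.569), and it was the least similar gene for Bst2, Ifi44, Samd9l, Trim30a and Phf11d. Outside the 10, the genes whose log2 values were closest to the mean standardised profile were Tril (r 0.998), Clec14a (0.994), Tspan7 (0.994), AW112010 (0.994) and Pml (0.994). For scale, 285 of the 12467 other genes (2.29%) had an r above 0.95. All points share the same 6 libraries and their treatment groups.

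Several of the genes lie in families, and reads may be shared between close copies. Ifi27l2a overlaps Ifi27 in RefSeq coordinates. Ifi27 had a smaller difference, from 124 ± 20.6 to 201 ± 20.6 normalized counts (log2 fold change 0.71, SE 0.17, limma adjusted p 0.0859), and Ifi27l2b held at most 3.59 in any library. Beside Trim30a, Trim30d (log2 fold change 1.19), Trim12a (1.04), Trim34a (0.98) and Trim12c (0.79) were all higher without overlap, with adjusted p of 0.130, 0.0859, 0.0859 and 0.0891, whereas Trim30b stayed at or below 7.14 normalized counts. Phf11b, next to Phf11d, had 25.1 and 83.0 in doxorubicin replicates 1 and 3 against 12.2 to 16.3 in vehicle, and lay below that range in replicate 2 (1.07, adjusted p 0.256). Phf11a reached 24.9 in replicate 3 only, and Phf11c was listed at 18.0 and 5.87 in doxorubicin replicates 1 and 3 and at 0 in the others. Ifi44l was listed at 0 in all 6. Lgals3, which encodes the galectin bound by the product of Lgals3bp, had the largest difference of the relatives and partners, with 33.4, 67.2 and 462 against 14.1 to 15.8 (2.68, SE 0.84, adjusted p 0.0864). Lgals1 was lower, at -0.60 (adjusted p 0.0988), with overlapping groups. Of the 18 relatives and partners, 12 were tested, 0 were called in either direction, 11 had positive values, and the median was 0.89. Rtp4 overlaps Masp1 in RefSeq coordinates (log2 fold change -0.33, adjusted p 0.527), and Ifi35 ends 47 bases from Vat1 (1.17, adjusted p 0.0859). Whether the authors' counting used strand is not given in the sources used here, so reads near such borders cannot be assigned with certainty.

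Upstream of these effectors, interferon transcripts were at the limit of detection. Of 13 interferon genes, 11 were listed at 0 in all 6 libraries, including Ifnb1. Ifng was listed at 1.05 and 1.21 in doxorubicin replicates 1 and 2 and at 0 elsewhere, and Ifnz at 0.635 in vehicle replicate 1. None of them had a mean of 10, so 0 were tested. Of 20 receptor and signalling genes, 20 were tested and 0 were called, with 16 positive and 4 negative differences and a median of 0.40. This list shares some genes, Irf7 among them, with the list of other interferon-stimulated genes. The 3 largest differences were those of Irf7 (2.06, adjusted p 0.0859), the interferon gamma receptor chain Ifngr2 (-1.51, adjusted p 0.0859) and Irf5 (1.33, adjusted p 0.0890). Ifngr1 had the opposite sign to its partner chain, at 1.12 (adjusted p 0.0859), and was named after its values were seen. Of 56 other interferon-stimulated genes, 56 were tested, 56 had positive differences and 0 were called, with a median of 0.93, close to the 1.02 of the 10 effectors. Their groups did not overlap in 42, all higher after doxorubicin, against 19.2% of all genes tested. Zbp1 (3.16, adjusted p 0.0859), Oas3 (2.76, adjusted p 0.156) and Irf7 differed most. The list was measured in the same 6 libraries as the 10 genes and is no separate evidence.

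Levels of markers of other cell types differed between the groups too. The ventricular cardiomyocyte genes were the most abundant of the lists, but these 10 genes summed to 720097 to 877165 normalized counts with vehicle, against 655429, 218005 and 183629 for doxorubicin replicates 1, 2 and 3. The 12 macrophage markers summed to 2645 to 2838 in vehicle and to 4369, 7278 and 17013 in doxorubicin libraries, with 12 of 12 positive, 11 higher without overlap (19.2% of all genes tested) and none at 0. Neutrophil markers (8) summed to 11.2 to 20.8 and to 56.1, 604 and 457, and of these Ly6g was listed at 0 in the vehicle libraries and in doxorubicin replicate 1. The 10 endothelial markers summed to 18939 to 26058.5 and to 34929, 37970.4 and 48653, with 9 of 10 positive and 7 higher without overlap, against the same 19.2%. The 10 fibroblast markers summed to 7279 to 9777 and to 10073, 24998 and 18399. Of these, 9 of 10 were positive and 4 were higher without overlap, against the same 19.2%. Dcn alone made up 18072 and 11326 of the sums in doxorubicin replicates 2 and 3. Plasmacytoid dendritic cells also express Bst2, and of the 5 genes listed for them 2 were tested, with 0 called. Tcf4, which other cell types also express, had a log2 fold change of 0.32 (limma adjusted p 0.204). Its groups barely missed overlapping, at 1499.46 in doxorubicin replicate 2 against 1499.04 in vehicle replicate 1. Cox6a2, also a gene of striated muscle, was lower without overlap (-1.08, adjusted p 0.105). Of the others, Siglech held at most 2.66 normalized counts in any library, Klk1 at most 0.958 and Ccr9 at most 11.5. No lymphocyte marker (9 in the table) had a mean of 10. Atrial and erythroid markers were highest in doxorubicin replicate 1, at 1431 against 456 to 526 and 9027 against 1211 to 2104 in vehicle. The part of any of these cell types in the levels of the 10 genes was not tested. The 10 effector genes summed to 2535, 2485 and 5081, against 1473 to 1601 in vehicle. Macrophage and endothelial sums were also highest in replicate 3, and for both replicate 2 lay above replicate 1. The other interferon-stimulated genes summed to 1.54, 1.73 and 2.95 times vehicle in doxorubicin replicates 1, 2 and 3. Their median log2 changes were 0.66, 0.53 and 1.59.

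**Figure D4:**
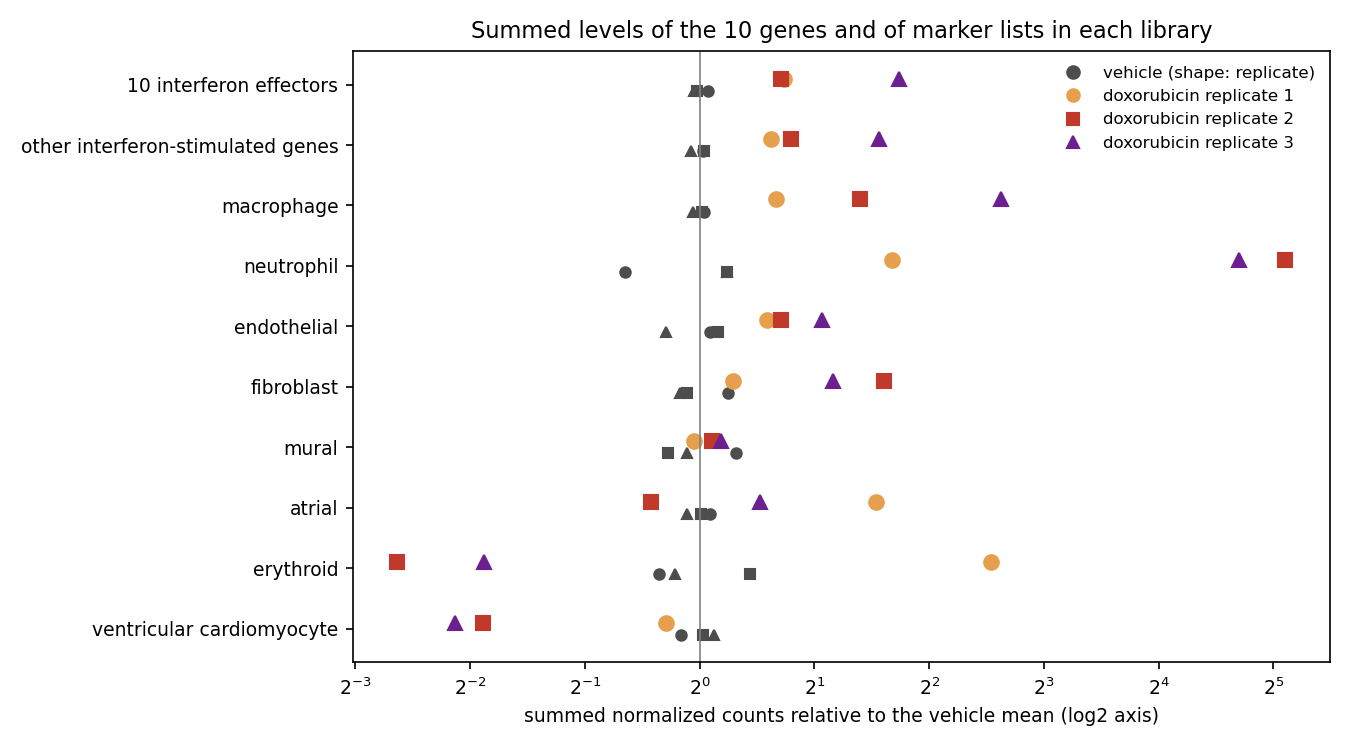
Summed normalized counts of the 10 genes, the other interferon-stimulated genes and marker lists in each library, relative to the vehicle mean of each list (horizontal log2 axis). The 10 genes stand at 1.66, 1.63 and 3.34 times vehicle in doxorubicin replicates 1 to 3, the macrophage markers at 1.58, 2.64 and 6.17, and the ventricular cardiomyocyte genes at 0.814, 0.271 and 0.228.

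Depth limits these values little for single genes but differs with treatment. Totals were 7217950 to 7500390 normalized counts in vehicle and 5410780 to 6498370 in doxorubicin libraries. Taking the most common low value as 1 read gave about 7710000 to 11400000 reads in vehicle and 3670000 to 6170000 in doxorubicin libraries, so depth and treatment cannot be told apart. The lowest of the 10 genes in any library rested on about 52.6 reads.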

How the data were processed

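Per the labels, reads were aligned with STAR in a BaseSpace application to mm10 with RefSeq genes. The submitters' processing notes also name STAR 2.6.1a and Salmon without a role, and no label or header used here states how reads were counted or scaled. The authors deposited a non-negative signal per gene and library, called normalized counts, which was used without rescaling. Between 80.0% and 92.5% of low values lay within 0.1 step of a whole multiple of the worth of 1 read, too few for count tests.

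After log2 with a pseudocount of 1, genes with a mean of at least 10 were tested with limma 3.58.1 (R 4.3.3), doxorubicin minus vehicle, with a mean-dependent prior variance, two-sided and Benjamini-Hochberg adjusted over all genes. The log2(value + 1) scale understates the change of low genes. The script was tested on simulated data. Groups came from sample titles. The members and lists were chosen with earlier results of these data known. Named were the 10 genes, the 3 largest differences of each pathway list, any relative, partner or ligand, and the 5 genes closest to the mean profile. Promoters and positions are RefSeq's, GRCm38.p6, counted from 1; all 10 genes matched by symbol. Figures used matplotlib 3.10.9. Alternatives were pseudocount, filter, scaling, prior, weights, replicate block, class covariate, threshold and leaving out each library.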

Additional observations from a re-analysis of the deposited data

How the results depend on the processing

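All 10 genes kept a positive log2 fold change under each of the 16 alternative fits. Of these, the filters, the prior and the replicate block cannot change a log2 fold change. Their median was 1.02, and it ran from 0.61 without doxorubicin replicate 3 to 1.32 with equal library totals, a scaling that moved the median of all genes to 0.30. Within the Y-linked class, as a value with no test, it was 0.47, and within the Xist class 1.28. The number of genes without overlap was 8. Pseudocount, filter, prior, weights, block and class covariate cannot change it, and leaving out a library can only keep or raise it (8 to 10). The 2 other scalings could have lowered it, and it was 9 with equal totals and 9 with quantile normalization. Ifi27l2a ranged from 1.78 to 2.62 and Samd9l from 0.38 to 1.08. Genes called at an adjusted p under 0.05 were 0 higher and 0 lower, with 0 of each also for pseudocounts of 0.5 and 8, no filter, a mean of at least 50, equal totals, quantile normalization, no trend and the class covariate. Library weights gave 1954 higher and 2318 lower, and a threshold of 0.10 gave 1383 higher (11.1%) and 1639 lower, with 6 of the 10 genes among the higher. Leaving out 1 library gave 0 to 2421 higher and 0 to 2715 lower, and the upper ends are without doxorubicin replicate 1, whose weight was 0.277; the cause was not tested. The replicate block gave 0 higher and 0 lower, with the median of 1.02 unchanged, as the balanced design fixes it. Same-numbered libraries correlated at -0.13, 0.03 and -0.09 in their deviations, and differently numbered ones at -0.18 to 0.22. No pairing by number was evident, but with 3 libraries per group these values cannot exclude one.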
